A study of Mus musculus with 6 samples.

Results

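Genes that mark the pancreatic duct epithelium were followed in mouse islets of 3 size classes after treatment with an antibody against serpin B13. The list held 8 genes: the intermediate filament genes Krt19, Krt7, Krt8 and Krt18, the transcription factor gene Sox9, the mucin gene Muc1, the osteopontin gene Spp1 and the chloride channel gene Cftr. Every probe annotated with one of these symbols was taken, which gave 13 of 45259 usable probes, for 7 of 21946 named genes; no named probe stood for Spp1. All mice were BALB/c and were dosed into the peritoneum, beginning when they were 2 weeks old, with either B29, a monoclonal antibody to the protease inhibitor serpin B13, or a control IgG. Each dose was 25 µg, 4 doses made a total of 100 µg, and islets were taken at an age of 5 weeks, when 2 weeks had passed without dosing. Their islets were sorted by diameter, and RNA of each treatment and class went onto 1 Illumina bead array: B29 and IgG under 100 µm, B29 and IgG from 100 to 200 µm, and B29 and IgG over 200 µm. How many mice fed each array, and whether the classes of a treatment shared mice, is not given in the sources used here, so p-values measure agreement between classes or between treatments, not between animals. Levels are the authors' normalized log2 values, and a probe counted as detected where its deposited detection p was under 0.05; 14800 to 15914 probes (32.7% to 35.2%) were detected per array.

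Pancreatic ducts carry digestive enzymes from the acini to the gut and add a bicarbonate-rich fluid. Their cells are a simple epithelium whose cytoskeleton is built of paired type I and type II keratins, whose apical membrane carries mucins and the Cftr channel, and whose identity is tied to Sox9. Islets are endocrine clusters within this exocrine tissue, so an islet preparation can hold attached duct and acinar cells, and several duct markers are not exclusive to ducts: keratins 8 and 18 are made by simple epithelia in general and Muc1 also by acinar cells. In bulk RNA of this kind, fewer cells of a type and less RNA per cell cannot be told apart.

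The label of the list was only partly borne out by these arrays. Of the 8 genes, 5 had a probe detected on all 6 arrays (Krt7, Krt8, Krt18, Sox9 and Muc1), while Krt19 and Cftr, the keratin and the channel most often used to define duct cells, were detected on none. Of the 13 probes, 9 met the condition for testing, detection on at least 2 of 6 arrays, and 4 did not. The members did not share 1 pattern: Muc1 fell in islets over 200 µm relative to those under 100 µm, Sox9 stood lower in the larger classes without passing the test, Krt8 and Krt18 were slightly lower and Krt7 slightly higher there, and none passed the test of B29 against IgG.

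**Figure D1:**
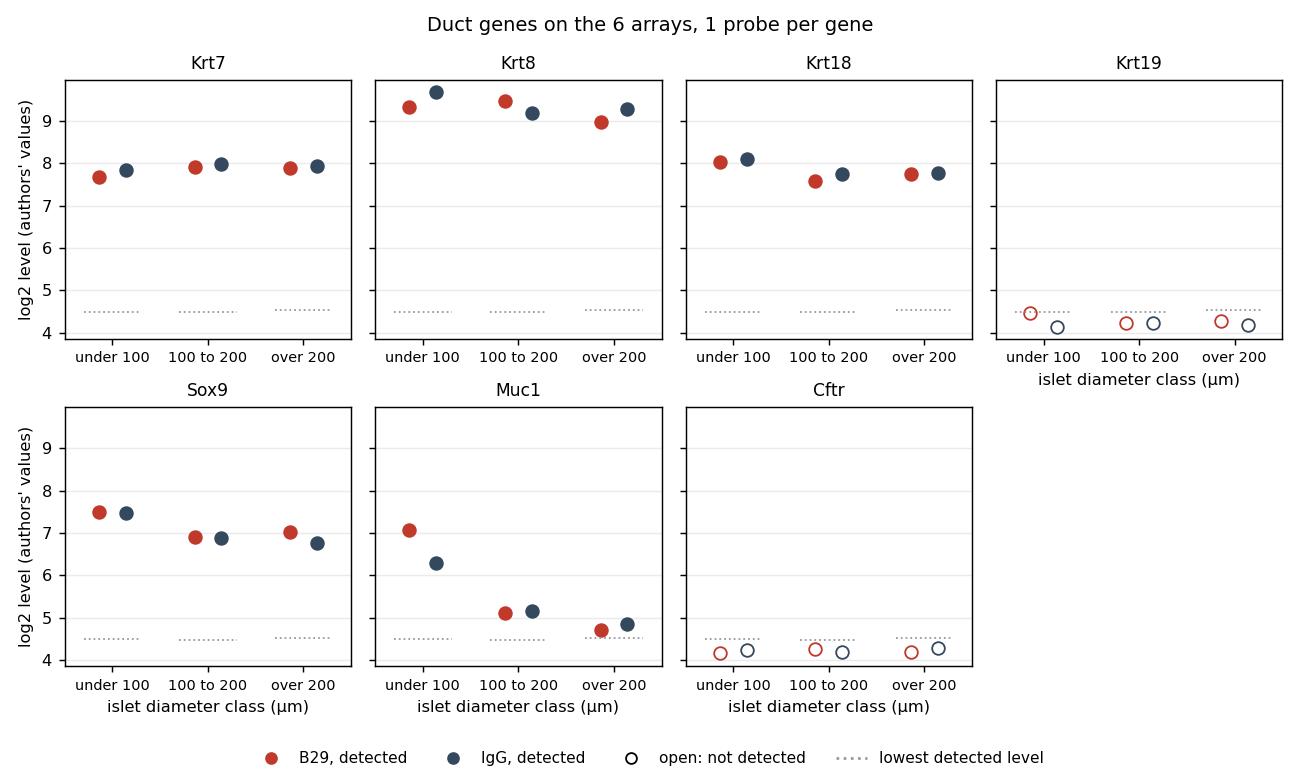
Normalized log2 level of 7 duct genes (1 probe each) on the 6 arrays, with diameter class on the x axis, B29 in red and IgG in dark blue, filled where detected and open where not; dotted lines mark the lowest level of a detected probe (4.47 to 4.54, drawn as the mean of both arrays of a class). Muc1 stood at 7.08 and 6.29 under 100 µm against 5.15 or less elsewhere, whereas Krt7 kept within 7.67 to 7.98.

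The keratins come first. Krt7, a type II keratin of duct and other glandular epithelia, had log2 levels of 7.67 with B29 and 7.85 with IgG under 100 µm, 7.91 and 7.98 from 100 to 200 µm, and 7.89 and 7.94 over 200 µm. The B29 array was the lower of each pair, by 0.18, 0.07 and 0.05, and both arrays under 100 µm lay below the 4 others. Over 200 against under 100 µm the fitted log2 difference was 0.15 (SE 0.16, 95% interval -0.20 to 0.51), with an adjusted p = 0.792 in limma's test.

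Krt8, the type II keratin that pairs with Krt18 in simple epithelia, had levels of 9.33 with B29 and 9.70 with IgG under 100 µm, 9.48 and 9.19 from 100 to 200 µm, and 8.98 and 9.28 over 200 µm. B29 was the lower array in the smallest and largest classes and the higher in the middle one, and the arrays over 200 µm lay below those under 100 µm. That size difference was -0.38 (SE 0.20, interval -0.83 to 0.07; limma, adjusted p = 0.571). A second Krt8 probe, listed under the older symbol Krt2-8, was detected on no array, at levels of 4.22 to 4.31, so that the probes of this gene disagree and its values rest on 1 probe.

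Krt18, the type I partner, had levels of 8.03 with B29 and 8.11 with IgG under 100 µm, 7.58 and 7.75 from 100 to 200 µm, and 7.76 and 7.78 over 200 µm. Both arrays under 100 µm lay above the 4 others. Its difference from the smallest class was -0.41 (SE 0.16, interval -0.77 to -0.05; limma, adjusted p = 0.747) at 100 to 200 µm and -0.30 (SE 0.16, interval -0.66 to 0.05; adjusted p = 0.570) over 200 µm. Krt18 was lowest in the middle class with both antibodies, whereas Krt8 was lowest over 200 µm with B29 and in the middle class with IgG.

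The 3 keratin genes detected here are neighbours on chromosome 15. Between Krt8 and Krt18, which are read away from each other, the RefSeq table of assembly GRCm38.p6 lists 2 genes and 0 protein-coding ones, against 31 genes between Krt7 and Krt8. The 250 bases before each start are shown so that a partner pair and a neighbouring keratin gene can be set side by side. A difference in pattern between these genes was not tested. Capitals mark matches on either strand. The GC box was searched as GGGCGG. The TATA box, a common core promoter element near the start, was searched as TATAAA. The CCAAT box was searched by the letters of its name, and the STAT element, to which cytokine-activated factors bind, as TTCNNNGAA.
Krt7 (chr15:101412153-101412402, plus strand): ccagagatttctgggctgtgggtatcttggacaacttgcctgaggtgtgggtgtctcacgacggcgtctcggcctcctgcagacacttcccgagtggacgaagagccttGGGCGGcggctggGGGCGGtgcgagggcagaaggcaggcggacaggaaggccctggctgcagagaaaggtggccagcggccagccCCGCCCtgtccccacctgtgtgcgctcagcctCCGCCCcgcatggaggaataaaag
Krt8 (chr15:102004343-102004592, minus strand): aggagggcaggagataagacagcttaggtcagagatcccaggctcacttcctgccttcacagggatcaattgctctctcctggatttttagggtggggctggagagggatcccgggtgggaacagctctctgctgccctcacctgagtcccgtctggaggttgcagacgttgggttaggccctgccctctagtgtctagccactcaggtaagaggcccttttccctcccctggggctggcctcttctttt
Krt18 (chr15:102027966-102028215, plus strand): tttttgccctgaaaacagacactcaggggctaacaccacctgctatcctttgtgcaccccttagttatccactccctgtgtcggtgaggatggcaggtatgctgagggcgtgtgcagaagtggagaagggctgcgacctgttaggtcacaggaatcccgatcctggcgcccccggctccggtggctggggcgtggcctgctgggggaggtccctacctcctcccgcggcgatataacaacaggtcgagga
The Krt7 window held 4 GC boxes and was 66.0% G and C, while neither the Krt8 window (58.0%) nor the Krt18 window (60.4%) held any of these 4 motifs. Of 32851 promoter windows of the same length, 32.7% held a GC box, 12.4% a TATA box, 33.8% a CCAAT box and 7.02% a STAT element. E boxes (CANNTG, in 66.2% of windows) stood in all 3 keratin windows, and AP-1 elements (TGANTCA, 6.75%) and the SOX core letters (ACAAT, 27.7%) in none of them. These are letter matches in a window and say nothing about binding.

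Sox9 encodes the transcription factor that maintains duct and centroacinar cell identity and marks the progenitors of the embryonic pancreas. Its brighter probe had levels of 7.50 with B29 and 7.48 with IgG under 100 µm, 6.91 and 6.89 from 100 to 200 µm, and 7.02 and 6.76 over 200 µm. Both arrays under 100 µm lay above the 4 others, and within the 2 smaller classes the antibodies lay within 0.03 of each other. The difference from the smallest class was -0.59 (SE 0.16, interval -0.96 to -0.22) at 100 to 200 µm and -0.60 (SE 0.16, interval -0.97 to -0.23) over 200 µm, a level 1.51-fold lower. Over all probes neither passed limma's test (adjusted p = 0.497 and adjusted p = 0.238; unadjusted p = 0.00574 and 0.00520, where 5.96% and 10.4% of all probes had an unadjusted p under 0.05).

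The dimmer Sox9 probe had levels of 4.81 with B29 and 4.70 with IgG under 100 µm, 4.59 and 4.50 from 100 to 200 µm, and 4.43 and 4.35 over 200 µm. It was detected on the 4 arrays up to 200 µm and on neither array over 200 µm, where it was at least 1.17-fold lower than under 100 µm when undetected values were put at the detection floor (limma, adjusted p = 0.463). Both Sox9 probes were thus highest under 100 µm, and both had fitted B29 differences close to 0: 0.10 (SE 0.13) and 0.09 (SE 0.13).

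Muc1 encodes a membrane mucin of the apical surface. It is measured by 4 probes, all 4 of which were brighter on both arrays under 100 µm than on any of the 4 others. For the 2 dimmest this order carries no weight, because they met the condition for testing only with the arrays under 100 µm. The 4 probes read the same gene on the same arrays and are not independent. The brightest, detected on all arrays, had levels of 7.08 with B29 and 6.29 with IgG under 100 µm, 5.10 and 5.15 from 100 to 200 µm, and 4.72 and 4.85 over 200 µm. Levels averaged 4.78 ± 0.09 over 200 µm and 6.69 ± 0.56 under 100 µm (SD, n = 2 arrays each). Muc1 fell by 1.90 on the log2 scale (SE 0.23, 95% interval -2.43 to -1.37), or 3.73-fold, over 200 against under 100 µm (limma, adjusted p = 0.0144). The levels over 200 µm lay close to the lowest level of a detected probe, 4.54 with B29 and 4.52 with IgG. The size of the fold thus depends on how background is treated, and was -0.92 on the log2 scale without background correction. The fall was larger with B29 (-2.36) than with IgG (-1.44); the difference between these was not tested, since 1 array per group leaves no residual for an interaction.

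From under 100 to 100 to 200 µm the same probe differed by -1.56 (SE 0.23, interval -2.09 to -1.03) with an adjusted p = 0.0701, which missed the threshold, and over 200 against 100 to 200 µm it differed by -0.34 (SE 0.23, interval -0.87 to 0.19; adjusted p = 0.985; limma). The step between the 2 smaller classes was thus -1.98 with B29 and -1.13 with IgG, and the step between the 2 larger ones -0.38 and -0.31.

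Over 200 against under 100 µm, 2 of the 3 other Muc1 probes passed limma's test: ILMN_2928489 (-1.49, SE 0.24, adjusted p = 0.0428) and ILMN_1231229 (-1.20, SE 0.18, adjusted p = 0.0305). The dimmest, ILMN_1259202, did not (-0.83, SE 0.16, limma, adjusted p = 0.0765). It was detected only on the 2 arrays under 100 µm, and ILMN_1231229 only there and on the B29 array of 100 to 200 µm. Both probes thus met the condition for testing only with the class where they were highest. On both arrays over 200 µm ILMN_1231229 and ILMN_1259202 were not detected, so that their falls are given as at least 2.06-fold and at least 1.40-fold. ILMN_2928489 was detected with IgG (4.80) and not with B29 (4.31) in that class. In all, 3 of 9 tested probes of the duct genes passed this comparison, all of Muc1 and all lower over 200 µm; of all 16774 tested probes 0.531% passed, and 0.435% passed as lower.

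**Figure D2:**
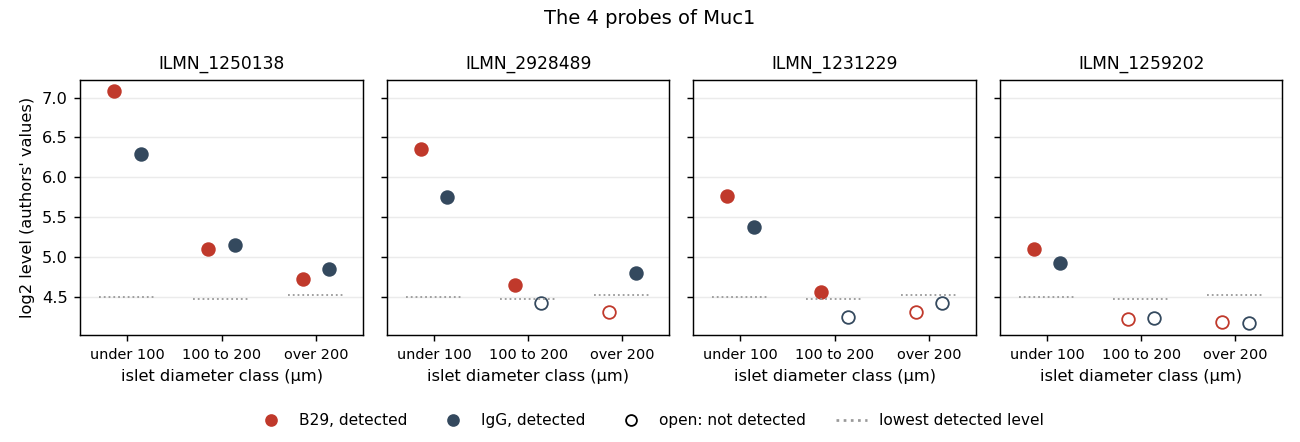
Normalized log2 level of the 4 Muc1 probes on the 6 arrays, by islet diameter class, with B29 in red and IgG in dark blue and open points where the probe was not detected. On all 4 probes both arrays under 100 µm were above all others, and with B29 above IgG by 0.79, 0.60, 0.38 and 0.18. The 4 probes read the same gene on the same arrays and are not independent. Of all probes 17.6% were lower without overlap over 200 against under 100 µm. At 100 to 200 against under 100 µm the share was 16.5%.

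Muc1 stayed lower over 200 than under 100 µm whichever array of the smallest class was left out. The fitted difference was -2.34 when IgG was dropped there and -1.46 when B29 was. Such fits keep 1 array in that class, so only their effect sizes are given. The call was lost with median centring (-1.75, limma, adjusted p = 0.0933), where 5 of all tested probes passed, against 89 in the main fit. It was also lost without a filter on dim probes (limma, adjusted p = 0.353) and without background correction (-0.92, adjusted p = 0.267). The same held with another background method (-1.09, limma, adjusted p = 0.223). In each of these last settings 0 of all tested probes passed, so the lost calls are not particular to Muc1. The direction was the same in all 16 alternatives.

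The sequence before the Muc1 start is shown because Muc1 was the member whose level passed the test.
Muc1 (chr3:89228806-89229055, plus strand): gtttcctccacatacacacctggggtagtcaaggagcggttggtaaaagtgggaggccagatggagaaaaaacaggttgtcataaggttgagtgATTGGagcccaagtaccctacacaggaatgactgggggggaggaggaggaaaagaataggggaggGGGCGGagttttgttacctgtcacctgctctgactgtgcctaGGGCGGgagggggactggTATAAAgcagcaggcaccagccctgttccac
This window held a TATA box ending 26 bases before the start, 2 GC boxes, 1 CCAAT box on the reverse strand and 3 E boxes, with no STAT element, AP-1 element or SOX core letters; it was 54.8% G and C, where the median of all windows was 52.4%. Promoter windows were matched for 6 of the 8 genes and not for Krt19 and Sox9.

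The remaining members gave no measurable level. Krt19, the type I keratin used most widely as a duct marker, had log2 levels of 4.46 with B29 and 4.14 with IgG under 100 µm, 4.24 and 4.24 from 100 to 200 µm, and 4.28 and 4.18 over 200 µm. No array passed the detection threshold, though the B29 array under 100 µm came closest: the deposited detection value was 0.0524 there and 0.205 to 0.955 on the others. Cftr, the channel through which chloride and bicarbonate leave duct cells, was detected with neither of its probes, whose levels ran from 4.14 to 4.29. Not being above background is a limit of these probes on these arrays and does not show that the transcripts were missing.

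Next, B29 was compared with IgG over the 3 classes. No duct gene passed: 0 of 9 tested probes had an adjusted p under 0.05 in limma's additive fit, where 0.00596% of all tested probes passed and 4.67% had an unadjusted p under 0.05. For 1 probe per gene, the log2 difference of B29 minus IgG was -0.10 (SE 0.13) for Krt7, -0.13 (SE 0.16) for Krt8, -0.09 (SE 0.13) for Krt18, 0.10 (SE 0.13) for Sox9 and 0.20 (SE 0.19) for Muc1. Adjusted p ran from 0.970 to 0.977, and the B29 and IgG arrays overlapped for each of the 5, where 9.11% of all probes did not overlap. The 95% intervals lay between -0.49 and 0.64 in all. The median difference of the 5 genes was -0.09, against 0.00 over all probes.

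Within a single class there was 1 array against 1 and no test. None of the 5 measured genes was 2-fold apart in any class, where 0.596%, 0.475% and 0.925% of detected probes were at least 2-fold apart from the smallest to the largest class. The widest gap was that of Muc1 under 100 µm: 0.79 higher with B29, larger than the gap of 98.2% of probes on those arrays. All 4 Muc1 probes were higher, but they read the same gene on the same arrays. The gap did not recur in the larger classes (-0.05 and -0.13). Without the pair under 100 µm the Muc1 difference over classes became -0.09. Krt8 differed in sign between classes (-0.37, 0.29 and -0.30), gaps larger than those of 78.9%, 75.3% and 69.3% of probes, and Sox9 was 0.26 higher with B29 over 200 µm.

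**Figure D3:**
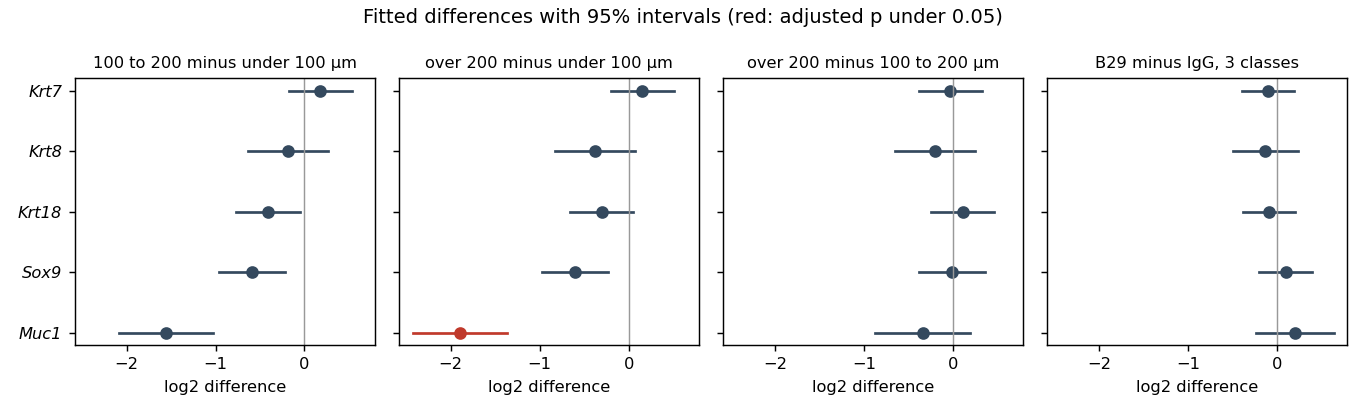
Fitted log2 differences (points) with 95% intervals (bars) of the 5 duct genes detected on all arrays, for each pair of diameter classes and for B29 minus IgG over the 3 classes; red marks an adjusted p under 0.05. Only Muc1 over 200 against under 100 µm (-1.90) was past the threshold.

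For the 5 genes over the size comparisons, 1 passed over 200 against under 100 µm (Muc1) and 0 passed at 100 to 200 against under 100 µm, where 0.0835% of all probes passed. Over 200 against 100 to 200 µm 0 of 5 passed, as did 0.0% of all 16774 probes in limma's test (810, or 4.83%, at an unadjusted p under 0.05). All 5 genes had arrays over 200 µm that did not overlap those under 100 µm, 4 of them lower, but 39.3% of all probes did not overlap in this comparison and 17.6% were lower without overlap. At 100 to 200 against under 100 µm 4 of 5 did not overlap, 3 of them lower (35.1% and 16.5% of all probes), and over 200 against 100 to 200 µm 2 of 5 (34.6%). The median difference of the 5 genes was -0.38 over 200 µm and -0.41 from 100 to 200 µm, each against under 100 µm, where the medians over all probes were 0.02 and 0.01. The lower median was carried by Muc1, Sox9, Krt8 and Krt18, with Krt7 on the other side of 0 in both.

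Other genes of the duct epithelium were examined by role. Of 34 further duct genes, 29 had a named probe and 17 were tested. Over 200 against under 100 µm 1 of the 17 passed, where 0.531% of all probes passed. In the other 3 comparisons 0 passed, where at most 0.0835% of all probes did. The median difference of the 17 genes over 200 against under 100 µm was -0.04, against 0.02 over all probes.

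The gene that passed was Tff2, which encodes a trefoil peptide secreted with mucus. It had levels of 11.19 with B29 and 10.08 with IgG under 100 µm, 7.70 and 7.33 from 100 to 200 µm, and 4.74 and 7.03 over 200 µm. All arrays of a class lay below those of the class before it. Tff2 fell by 4.76 on the log2 scale over 200 against under 100 µm (SE 0.63; limma, adjusted p = 0.0193), and its B29 array over 200 µm differed from the IgG array by -2.29. Its difference was -3.72 when B29 was dropped from the smallest class and -5.79 when IgG was, with 1 array kept in that class. The call was lost with 3 other treatments of background or scaling and without a filter on dim probes. In those settings at most 5 of all tested probes passed. It was also lost with a trended and robust variance model (limma, adjusted p = 0.468), in which 110 of all tested probes passed.

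Among duct transcription factors, 3 of 7 genes were tested and 0 passed. Hes1, the Notch target that restrains endocrine differentiation, differed by -0.39 (SE 0.20) over 200 against under 100 µm, and Onecut2 by 0.64 (SE 0.24); Elf3, an epithelial ETS factor, differed by -0.05. Ehf was detected on no array. Of the cilium and polycystic kidney genes 2 of 5 were tested, Pkd1 (-0.01) and Bicc1 (-0.04), and neither passed; Pkhd1 and Dcdc2a were detected on no array.

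Of 8 genes of fluid and bicarbonate transport 4 were tested and 0 passed. The water channel gene Aqp1, which capillary endothelium also expresses, differed by -0.49 (SE 0.23) over 200 against under 100 µm, the bicarbonate cotransporter gene Slc4a4 by -0.04, the anion exchanger gene Slc26a6 by -0.22 and the sodium pump subunit gene Atp1b1 by 0.13. Car2, the carbonic anhydrase of duct cells, Sctr, the secretin receptor, and Slc26a3 were detected on no array, as was Cftr among the members. Of 7 surface and junction genes, 3 were tested and 0 passed: the claudin genes Cldn4 (0.13) and Cldn7 (0.19), and the tetraspanin gene Tspan8 (0.27). Epcam and Cd24a were detected on no array and Prom1 on 1. Of 7 secreted and stress genes, 5 were tested. Beside Tff2 these were Ambp (0.57, SE 0.19), Lgals3 (-0.38), Anxa2 (0.16) and Lcn2 (-0.22), and none of these 4 passed.

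**Figure D4:**
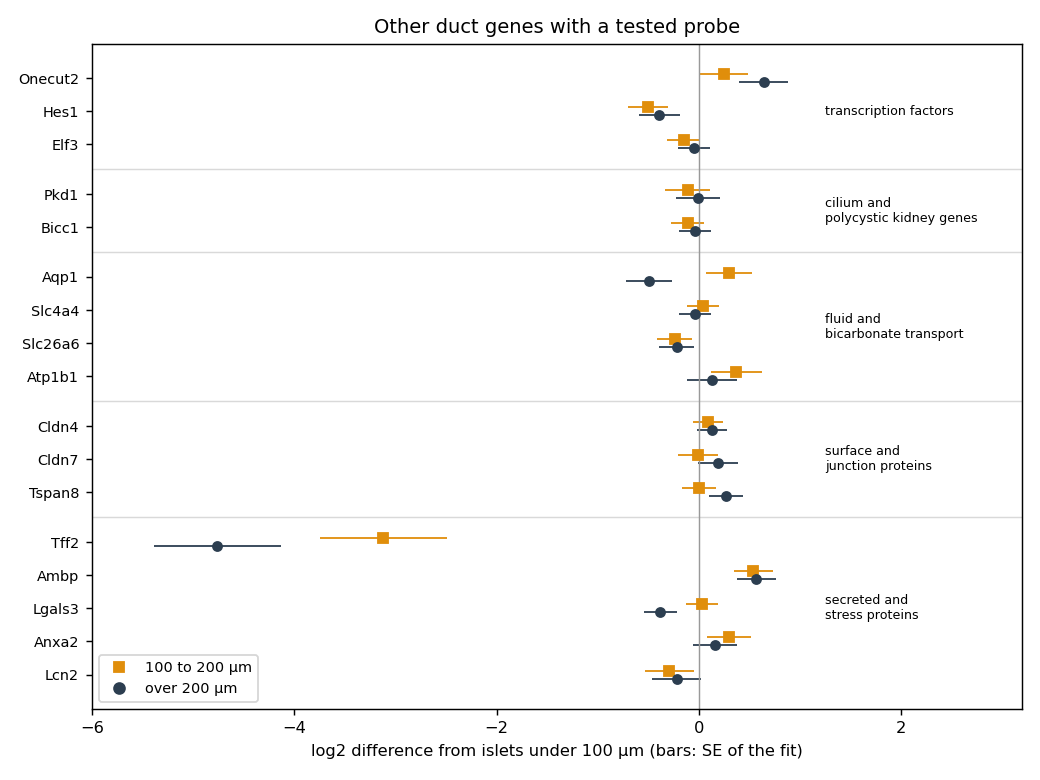
Fitted log2 difference of 17 further duct genes from islets under 100 µm, for islets of 100 to 200 µm (orange squares) and over 200 µm (dark circles), grouped by role; bars are the SE of the fit. Tff2 (-3.12 and -4.76) stood far from the other 16, which lay between -0.50 and 0.64.

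Other epithelial keratins were looked at beside the members. Of 7 such genes 3 were tested, and 0 passed in any comparison. Krt17, a type I keratin of basal and stressed epithelia, had levels of 6.13 with B29 and 6.11 with IgG under 100 µm, 5.71 and 6.06 from 100 to 200 µm, and 5.22 and 5.76 over 200 µm. Krt23 and Krt10 differed by -0.24 and 0.05 over 200 against under 100 µm. Krt5, Krt14, Krt20 and Krt80 were detected on no array.

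Acinar markers fell with diameter on the same arrays. Of 17 acinar genes 15 had a named probe; their summed linear level was 124600 with B29 and 111000 with IgG under 100 µm, 53530 and 42820 from 100 to 200 µm, and 6436 and 35280 over 200 µm. In the fit 8 of 15 acinar genes passed as lower over 200 against under 100 µm, where 0.435% of all probes did. Their median difference was -4.21. Muc1, Tff2 and Sox9 were highest on the arrays with the most acinar RNA, and the part of acinar RNA in their size differences was not tested. On the arrays over 200 µm the median acinar level was 6.76 with B29 and 10.24 with IgG. Tff2 stood there at 4.74 and 7.03, Muc1 at 4.72 and 4.85 and Sox9 at 7.02 and 6.76. Muc1 was then close to the lowest level of a detected probe, 4.54 with B29 and 4.52 with IgG, which left little room for a lower value. The acinar transcription factor genes Ptf1a (-2.64) and Rbpjl (-3.43) also fell over 200 against under 100 µm (limma, adjusted p = 0.00559 and adjusted p = 0.00247). Bhlha15, another of these, differed by -0.73 and did not pass (limma, adjusted p = 0.212). Over 200 µm Ptf1a stood at 4.19 with B29 and 4.25 with IgG, below the lowest level of a detected probe. Rbpjl with B29 did so too (4.22), so the sizes of both falls are limited by that floor.

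**Figure D5:**
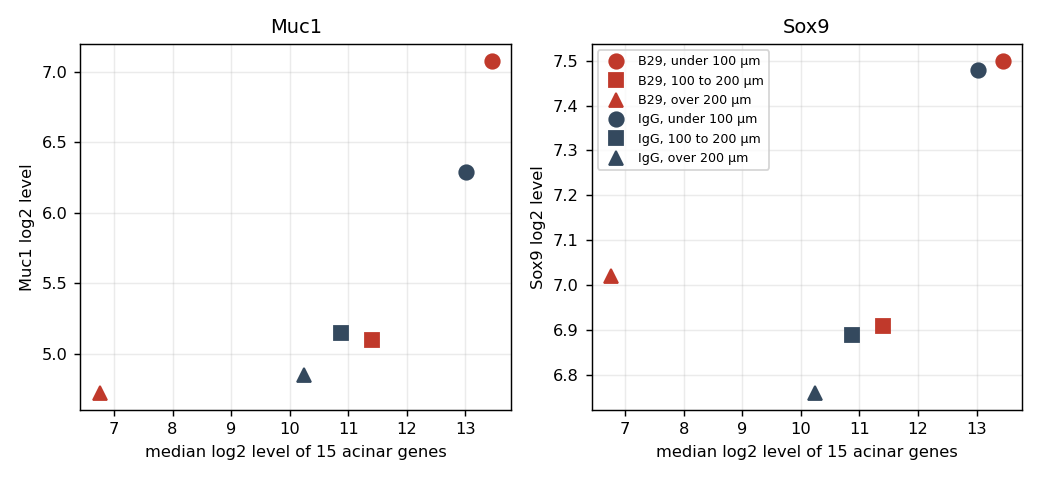
Log2 level of Muc1 (left) and Sox9 (right) against the median log2 level of 15 acinar genes on the 6 arrays (B29 red, IgG dark blue; circles under 100, squares 100 to 200 and triangles over 200 µm); the axes do not start at 0. Both genes were highest on the arrays under 100 µm, where the acinar median was 13.45 with B29 and 13.02 with IgG. Over 200 µm the acinar median was 6.76 with B29 and 10.24 with IgG, with Muc1 at 4.72 and 4.85 and Sox9 at 7.02 and 6.76. Muc1 lay there close to the lowest level of a detected probe (4.54 with B29 and 4.52 with IgG).

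The 9 beta cell genes with a probe had a median difference of 0.21 over 200 against under 100 µm. Of these 1 passed as higher, where 0.0954% of all probes did. The median was 0.27 for the 3 tested alpha cell genes and 0.14 for the 7 endothelial genes. It was 0.16 for the 6 tested macrophage genes and 0.40 for the 8 tested fibroblast and stellate genes. In each of these lists other than beta 0 passed. Mesothelial cells also make keratins 7, 8, 18 and 19. Of 5 mesothelial genes with a probe, Upk3b was detected on 5 of 6 arrays, at levels of 4.51 to 4.70, and Msln, Upk1b, Lrrn4 and Muc16 on none. The summed mesothelial level ran from 95.98 to 100.2. This sum includes the undetected probes at background level, so its narrow range does not measure mesothelial RNA. The part of mesothelial RNA in the keratin levels was not tested. Of 8 macrophage genes, 4 to 6 were detected per array: Cd14, Lyz2, C1qa and C1qb on all 6 arrays, Csf1r on 5, Cd68 on 3, and Adgre1 and Mrc1 on none.

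Finally, the genes whose levels followed each member most closely over the 6 arrays were listed among 8441 other named genes detected on all of them, as a description of 6 points that share their arrays. Closest to Muc1 were Acacb (Pearson's r 0.995), an acetyl-CoA carboxylase gene, Gamt (0.995), which encodes an enzyme of creatine synthesis, and Camk2n1 (0.993). Gamt had levels of 7.81 with B29 and 6.88 with IgG under 100 µm, 5.40 and 5.22 from 100 to 200 µm, and 4.61 and 5.07 over 200 µm. Closest to Sox9 were Gm4866 (0.989), Slc27a1 (0.984), a fatty acid transporter gene, and Casz1 (0.982), a zinc finger transcription factor gene. Krt8 was followed most closely by Shroom3 (0.990), an apical actin regulator gene, Galnt1 (0.984) and Myak (0.980), Krt18 by Atg7 (0.982), 1110012F10Rik (0.973) and Tm2d3 (0.973), and Krt7 by Flad1 (0.998), R74862 (0.991) and Lamtor4 (0.986). No duct gene appeared among the 3 closest of another duct gene. With 8441 genes compared over 6 arrays, a list of 3 cannot show whether duct genes vary together.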

How the data were processed

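Total RNA was extracted with Trizol and RNeasy columns, labelled with biotin by the Ambion MessageAmp kit and hybridised to Illumina arrays, per the labels' protocols. The deposited raw table gives each probe's intensity on each array beside a detection p-value; the deposited intensity values carry no background correction or normalization, as read from their values. The authors' second table, of log2 values, was used as deposited. Per the submitters' processing notes the tool was limma 3.34.9, and a repeat of its neqc function on the raw table gave the duct probes' values to within 0.0137. Of 45281 probes, 22 with words in place of a signal were not used. The scanner software and any genome build are not given in the sources used here.

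Probes were named from the platform's table, updated by Entrez gene (28620 probes), transcript (2637) or the table's own symbol (4527) with RefSeq GRCm38.p6 names. Testing required detection at p under 0.05 on 2 or more of the 6 arrays (16774 probes). One limma 3.58.1 fit (lmFit and eBayes, R 4.3.3) with additive terms for antibody and size class left 2 residual degrees of freedom (6.60 prior); Benjamini-Hochberg adjustment ran over all tested probes at 0.05. Any change of the antibody effect with size enters its residual. The value probe of a gene was the one with the highest mean. For probes not detected on any array of a class, a fold was computed against the lowest level of a detected probe. The number of arrays, 1 per group, limits the precision. The fit was run on simulated data with independent noise and no change of the antibody effect with size. That run does not cover such a change, or effects shared by the probes of an array. Promoter sequences came from RefSeq (GRCm38.p6).

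The members, the lists and the tests were chosen with earlier results of these data known. All probes of the members are accounted for; other duct genes were named by role from a fixed list, with those past the threshold and up to 3 of the highest level per role, and further genes of a role after their values were seen. Alternatives were other scalings, background corrections, filters, 1 probe per gene, another variance model, the other factor left out, and each array or class left out.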

Additional observations from a re-analysis of the deposited data

How the results depend on the processing

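Over 200 against under 100 µm, 3 probes of the duct genes passed, beside 89 of all tested probes. Counts of all probes are given in brackets below. The count of duct probes was 4 with a trended and robust variance model (110) or with treatment left out (102). It was 3 with neqc repeated on the raw intensities (89) and 2 with cyclic loess (85). With median centring it was 0 (5). It was also 0 without background correction, with normexp and an offset of 50 and without a filter on dim probes (0 in each). Duct probes were thus lost where nearly all other calls were lost. The duct count was 1 with probes detected on all 6 arrays (57) or with 1 probe per gene (49), where by construction only 1 Muc1 probe was tested. Leaving out 1 array gave 0 to 3. At 100 to 200 against under 100 µm the count of 0 became 4 with a trended and robust variance model. It was 2 with treatment left out of the fit. Over all 16774 tested probes the count there was 14, and it became 61 and 31 in these settings. In this and the preceding comparison every duct probe counted as passing was of Muc1. Leaving out 1 array gave Muc1 differences of -2.0 to -1.12 at 100 to 200 against under 100 µm. The counts of 0 for B29 against IgG, for over 200 against 100 to 200 µm and for 2-fold gaps within a class were the same in all their alternatives. Muc1 over 200 against under 100 µm kept its sign in 16 of 16 alternatives and passed in 10 (log2 difference -2.34 to -0.92, adjusted p from 0.000160 to 0.498); it did not pass with median centring (-1.75), and Tff2 passed in 9 of 16. With median centring the median of all probes was 0.19 at 100 to 200 against under 100 µm, where it had been 0.01, and there Krt8 turned to 0.10 and, over 200 against 100 to 200 µm, Krt18 to -0.06. Among arrays left out, Muc1 for B29 against IgG ran from -0.09 (without either or both arrays under 100 µm) to 0.37; Krt8 at 100 to 200 against under 100 µm ran from -0.49 to 0.13, with 0.00 without the IgG array under 100 µm. Over 200 against 100 to 200 µm, Krt8 ran from -0.51 to 0.11, Krt7 from -0.07 to 0.01 and Sox9 from -0.13 to 0.11, with 0.04 without the IgG array of 100 to 200 µm. None of these turned values passed, and the cause was not tested. The count of all probes passing over 200 against under 100 µm, 89, ran from 0 to 224 over the alternatives. The labels carry no replicate numbers to pair arrays by; the fit of B29 against IgG already compares the 2 arrays of each class, as 3 pairs.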
